A study of Homo sapiens with 5 samples.

Results

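The nCounter human miRNA panel held 9 probes, named hsa-miR-720, hsa-miR-1274a, hsa-miR-1274b, hsa-miR-1280, hsa-miR-1308, hsa-miR-886-3p, hsa-miR-1201, hsa-miR-1246 and hsa-miR-1979, whose targets were first listed as miRNAs and later traced to pieces of other small RNAs. They were chosen by name from the human miRNA probes of the panel, and all 9 were present. Values are listed in the order K562, Meg-01, Raji, U937 and Jurkat, which is the order of the summed share of the 9 probes. By their later assignment 5 of them read fragments of tRNA: hsa-miR-720 of tRNA-Thr, hsa-miR-1274a and hsa-miR-1274b of tRNA-Lys, hsa-miR-1280 of tRNA-Leu and hsa-miR-1308 of tRNA-Gly. The other 4 read a vault-like RNA (hsa-miR-886-3p, from VTRNA2-1), a C/D box snoRNA (hsa-miR-1201, from SNORD126), U2 small nuclear RNA (hsa-miR-1246) and Y3 RNA (hsa-miR-1979). These assignments are background, and no read or probe sequence was used here to test them. Counts were available from 5 transformed human hematopoietic cell lines, with no treatment in the labels: K562 is erythroleukemic, Meg-01 megakaryoblastic, Raji of B-lymphoblastic and Jurkat of T-lymphoblastic origin, and U937 monocytic. Each is a tumor-derived culture and was profiled in 1 sample of 100 ng total RNA extracted with Trizol, so the lines have no replicates and differences between them were not tested. All 95% intervals given here come from counting statistics and leave out how far separate cultures or extractions would differ.

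Transfer RNAs carry amino acids to the ribosome and are cut by nucleases such as angiogenin, Dicer and RNase Z into short pieces, some of which are released at the 3′ or 5′ end of the precursor or mature tRNA. Y RNAs are small cytoplasmic RNAs bound by the Ro60 protein, U2 is the spliceosomal RNA that pairs with the branch point of introns, C/D box snoRNAs guide 2′-O-methylation of ribosomal RNA, and the vault-like RNA encoded by VTRNA2-1, also called nc886, is known as an inhibitor of the kinase PKR. They are made in many cell types, and several are made from many gene copies. The RefSeq table of GRCh38.p14 holds 20 genes for tRNA-Thr on 7 chromosomes, 27 for tRNA-Lys, 32 for tRNA-Leu and 30 for tRNA-Gly, so a count of one of these probes belongs to a family and not to a locus. In the same table SNORD126, which holds hsa-miR-1201, lies inside CCNB1IP1. RNY3 has 16 pseudogenes there.

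A mature RefSeq entry was found for 1 of the 9 probe names, hsa-miR-1246, and for 5 of 10 other probes of like origin that are described further on. The sequence of that member and those for hsa-miR-1260, a tRNA-derived probe outside the 9, are shown 5′ to 3′, with the seed (bases 2 to 8) in capitals. The mature hsa-miR-1246 lies on the minus strand of GRCh38.p14 at chr2:176601024-176601042, and its hairpin overlaps no other gene of the table. For hsa-miR-1260 RefSeq holds a mature form at chr14:77266231-77266248 and another at chr11:96341447-96341465, both on the plus strand. They share their seed, and over the 18 bases compared they differ by U9A, counted from the 5′ end with the base of hsa-miR-1260a first. Whether the hsa-miR-1260 probe reads both forms was not tested.
hsa-miR-1246: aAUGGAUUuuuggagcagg
hsa-miR-1260a: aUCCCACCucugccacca
hsa-miR-1260b: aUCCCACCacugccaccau
The seed of hsa-miR-1246 was found in 1 mature human entry of the table, itself, and that of the hsa-miR-1260 forms in 2, themselves.

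The summed human counts were lowest in Raji (66892) and highest in Jurkat (130048). Factors that bring the geometric mean of the 100 most abundant human probes to 1 level in all lines ranged from 0.741 to 1.58, and 6 of the 9 probes were among those 100. Choosing the 100 without the 9 probes changed the factors by between -4.35% and 4.46%. The blood cell marker miR-142-3p was above background in all 5 lines, at 7436 counts or more. The megakaryocytic miR-126 was highest in K562 and Meg-01, with 1482 and 1954 counts against at most 99 in the others. The erythroid miR-451 and miR-144 were above background only in Meg-01 (129 and 981 counts) and K562 (59 and 216 counts). After scaling miR-451 did not differ between these lines beyond counting error, with Meg-01 at 1.33 times K562 (0.967 to 1.84). That held with the housekeeping probes too, at 0.952 (0.694 to 1.32). Meg-01 was higher with positive controls, at 2.01 (1.46 to 2.78), and with total human counts, at 2.10 (1.53 to 2.90). Without scaling it was 2.19 times K562 (1.59 to 3.03). The other erythroid marker, miR-144, had 727 scaled counts in Meg-01 and 264 in K562, and was thus higher in the megakaryoblastic line. The myeloid and megakaryocytic miR-223 was above background in all 5 lines, with 3269 counts in Meg-01, 2682 in U937, 1684 in K562 and 62 in Raji, and also 732 in the T-lymphoblastic Jurkat, against its label. The lymphoid miR-150 was at background in Raji (21 counts) and had 1030 counts in Jurkat. Of the markers of other tissues, miR-1 and miR-133a were at or below background in every line, and miR-122 and miR-200c were above it only in Jurkat, with 36 and 44 counts.

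Background was defined in each line as the mean plus 2 SD of its negative control probes after scaling. By this rule 6 of the 9 probes were above background in Meg-01, Jurkat, U937 and K562, and 5 were in Raji. Of all human probes, 27.5% were above background in K562, 27.2% in Meg-01, 17.0% in Raji, 28.3% in U937 and 35.0% in Jurkat. The probes hsa-miR-720, hsa-miR-1274a, hsa-miR-1274b, hsa-miR-1308 and hsa-miR-1979 were above it in all 5 lines, as were 13.5% of human probes, and hsa-miR-1246 was above it in all but Raji. Above background in at least 1 line were 6 of the 9 probes and 47.1% of human probes.

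The remaining 3 probes, hsa-miR-1280, hsa-miR-886-3p and hsa-miR-1201, were at or below background in every line by this rule. With the threshold at the mean of the negative controls instead, 8 of the 9 probes passed in Meg-01, Raji, U937 and Jurkat and 6 in K562. Their 15 raw counts lay between 12 and 32, and 0 of them exceeded the highest negative control of the same line. For hsa-miR-1280 the counts were 15 in K562, 22 in Meg-01, 32 in Raji, 21 in U937 and 30 in Jurkat. The 95% interval of the Jurkat count, from 20.2 to 42.8, held the threshold of 35.0 raw counts there, so that a low level in Jurkat could not be told from background. For hsa-miR-1201 the same was true of U937, where 32 counts had an interval from 21.9 to 45.2 around a threshold of 34.9. The counts of hsa-miR-886-3p ran from 12 in K562 to 22 in Meg-01 and in Jurkat, with every interval below its threshold. At this depth the products of tRNA-Leu, SNORD126 and VTRNA2-1 read by these probes were not detectable, which is a statement about the probes and not about the parent RNAs.

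**Figure D1:**
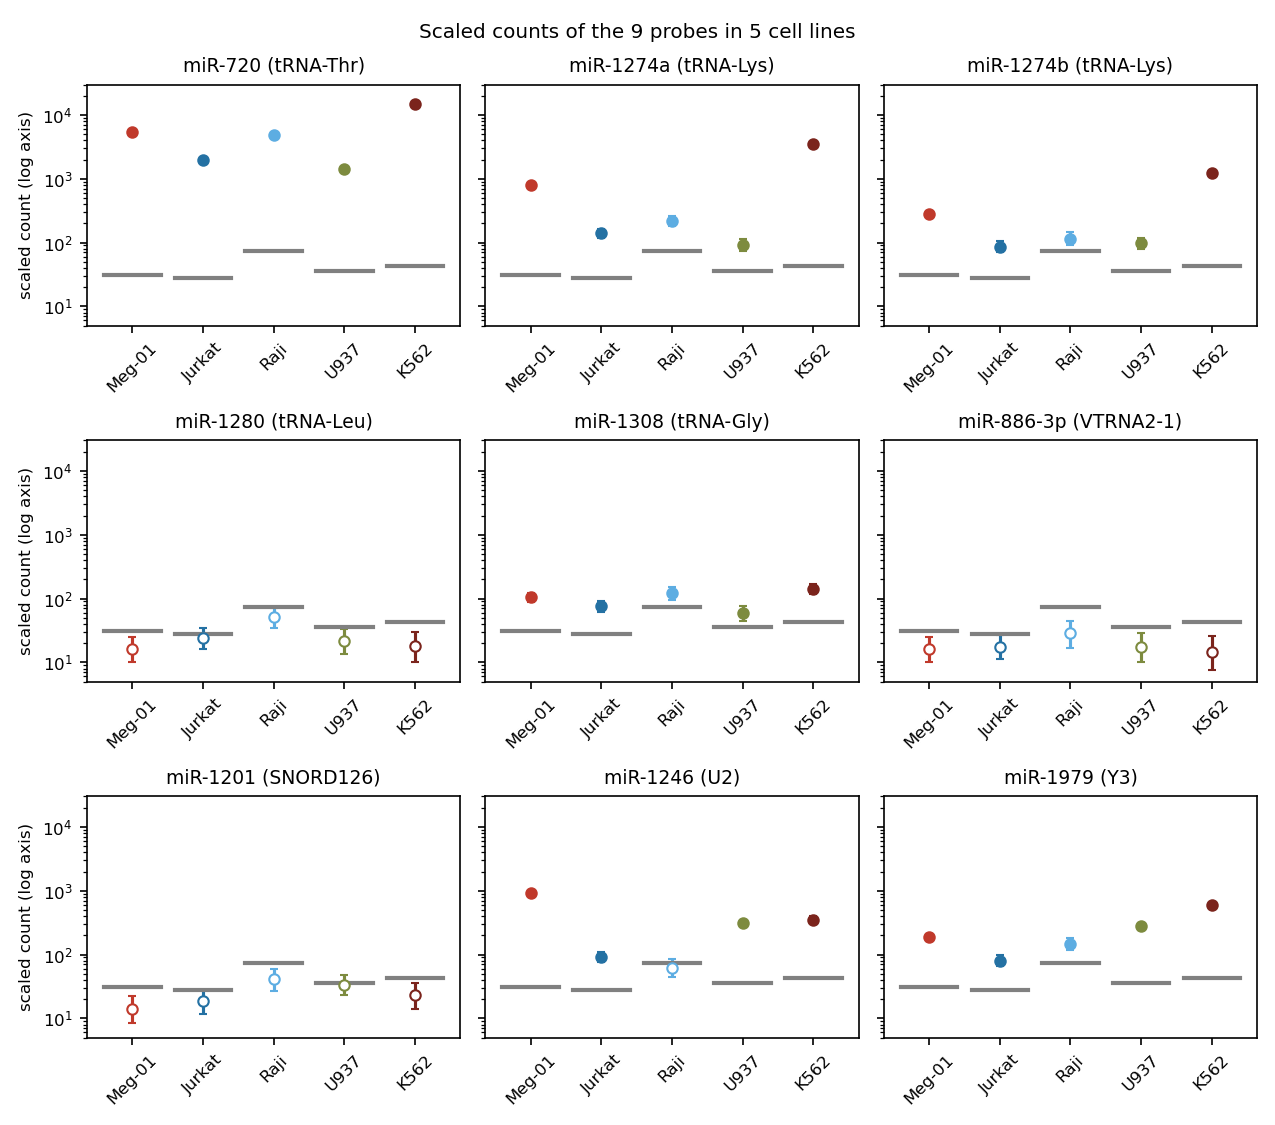
Scaled counts (log axis) of the 9 probes in the 5 cell lines, with 95% Poisson intervals as bars and the background threshold of each line as a grey dash. Filled points are above the threshold and open points are not. The points of hsa-miR-720 are the highest in each line, from 1442 in U937 to 15080 in K562, and hsa-miR-1280, hsa-miR-886-3p and hsa-miR-1201 sit at or under the dash in every line.

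The tRNA-Thr probe hsa-miR-720 had the highest count of the 9 in every line. Its raw counts were 12331 in K562, 7308 in Meg-01, 3017 in Raji, 1382 in U937 and 2469 in Jurkat. After scaling and subtraction the values were 15038, 5387, 4691, 1406 and 1960 in the same order. It ranked 2 among all human probes in K562, 3 in Meg-01, 4 in Raji, 11 in Jurkat and 12 in U937. Before subtraction the scaled count in K562 was 2.78 times that in Meg-01 (95% interval 2.70 to 2.87). Under the other scalings this ratio ran from 1.69 for raw counts to 3.87 with the housekeeping probes. Meg-01 and Raji lay closest together, at 1.14 (1.09 to 1.19). No pair of neighbors in the order K562, Meg-01, Raji, Jurkat, U937 had an interval that reached 1. The raw counts had the same order, but the closeness of Raji to Meg-01 came with the scaling, in which Raji had the highest factor.

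The tRNA-Lys probes hsa-miR-1274a and hsa-miR-1274b, which differ in name by a letter and are assigned to the 3′ end of different tRNA-Lys isoacceptors, were lower than hsa-miR-720 in counts and wider in spread. The counts of hsa-miR-1274a were 2860 in K562, 1061 in Meg-01, 137 in Raji, 89 in U937 and 172 in Jurkat. Those of hsa-miR-1274b were 996, 378, 73, 93 and 107 in the same order. Both were high in K562 and next in Meg-01 and low in Jurkat, Raji and U937. For hsa-miR-1274a the scaled count in K562 was 4.45 times that in Meg-01 (4.14 to 4.78), and that in Meg-01 3.64 times that in Raji (3.04 to 4.38). For hsa-miR-1274b those ratios were 4.35 (3.86 to 4.91) and 2.43 (1.89 to 3.17). Their size moved with the scaling. K562 over Meg-01 ran from 2.70 for raw counts to 6.19 with the housekeeping probes for hsa-miR-1274a, and from 2.63 to 6.05 for hsa-miR-1274b. Meg-01 and Raji stood further apart in raw counts. They did so with positive controls too, at 935 against 138 for hsa-miR-1274a and 333 against 73.6 for hsa-miR-1274b. Among the low lines hsa-miR-1274b had no order beyond counting error, with Raji over U937 at 1.19 (0.862 to 1.63) and U937 over Jurkat at 1.13 (0.844 to 1.50). That held for this scaling. With the housekeeping probes U937 was 1.72 times Raji (1.25 to 2.37), and with the positive controls 1.64 times (1.19 to 2.26). Raji over Jurkat was 1.56 for hsa-miR-1274a (1.24 to 1.97), and this order turned around without scaling and with positive control or housekeeping scaling. The rank of hsa-miR-1274a among human probes was 6 in K562 and 71 in U937.

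The tRNA-Gly probe hsa-miR-1308 was low in every line. Its counts were 117 in K562, 141 in Meg-01, 77 in Raji, 57 in U937 and 94 in Jurkat. K562, Raji and Meg-01, the highest 3 after scaling, did not differ between neighbors beyond counting error, at 1.18 (0.875 to 1.59) and 1.16 (0.869 to 1.55). Jurkat stood above Raji without scaling (94 against 77), with positive controls (88.5 against 77.6) and with the housekeeping probes (89.1 against 72.8). K562 over Meg-01 was 1.37, and ran from 0.830 without scaling to 1.91 with the housekeeping probes. U937 was the lowest line, and Jurkat over U937 was 1.27 (0.906 to 1.80). With the housekeeping probes U937 was level with Raji before subtraction, at 72.9 against 72.8.

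The U2 probe hsa-miR-1246 had another order of lines than the tRNA probes. Its counts were 289 in K562, 1264 in Meg-01, 39 in Raji, 297 in U937 and 114 in Jurkat. The Raji count had an interval from 27.7 to 53.3 around a threshold of 45.9 raw counts. After scaling Meg-01 was 2.65 times K562 (2.33 to 3.02), K562 and U937 could not be told apart at 1.14 (0.967 to 1.35), and U937 was 3.38 times Jurkat (2.71 to 4.23). The gap between Meg-01 and K562 moved with the scaling, from 1264 against 289 without it to 862 against 453 with the housekeeping probes. U937 was the higher of K562 and U937 without scaling (297 against 289), with positive controls (385 against 278) and with total human counts (320 against 278), and with positive controls U937 was 1.39 times K562 (1.18 to 1.64). It was 0.839 times K562 with the housekeeping probes (0.711 to 0.990) and 0.846 times with the 100 chosen without the 9 probes (0.717 to 0.999), so the order of these lines rests on the scaling. Its rank was 13 in Meg-01, 32 in K562, 33 in U937 and 70 in Jurkat.

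The Y3 probe hsa-miR-1979 had 489 counts in K562, 250 in Meg-01, 93 in Raji, 266 in U937 and 100 in Jurkat. K562 was highest after scaling, at 2.15 times U937 (1.85 to 2.51), and U937 was 1.50 times Meg-01 (1.26 to 1.79), or 1.06 times without scaling (0.892 to 1.27). The gap between K562 and U937 moved with the scaling, from 470 against 345 with positive controls to 766 against 340 with the housekeeping probes. Meg-01 over Raji was 1.26 (0.991 to 1.62), and Jurkat was the lowest line, at 0.549 times Raji (0.409 to 0.736). Meg-01 and Raji stood further apart without scaling (250 against 93) and with positive controls (220 against 93.8). The same was true with the housekeeping probes (171 against 87.9) and with total human counts (231 against 141). Without scaling and with positive control or housekeeping scaling Jurkat and Raji were within counting error, at 1.08 (0.803 to 1.44), 1.0 (0.749 to 1.35) and 1.08 (0.805 to 1.45), and Raji was then the lowest line after subtraction. U937, where all 4 detected tRNA probes had a low value, was here the second line.

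Summed over the 9 probes, the share of the human profile (scaled and background-subtracted values) was 18.9% in K562, 11.2% in Meg-01, 6.58% in Raji, 2.55% in U937 and 2.53% in Jurkat. A share within a line does not depend on the scaling between lines. As a share of raw counts the same sums were 16.3% (Wilson 95% interval 16.1 to 16.5), 9.54% (9.36 to 9.71), 5.25% (5.08 to 5.42), 2.40% (2.30 to 2.50) and 2.41% (2.33 to 2.49). Jurkat and U937 did not differ beyond counting error and the other 3 lines stood apart from them and from each other. The highest share was 7.46 times the lowest after subtraction and 6.79 times in raw counts. Probes are not calibrated against each other, so these shares are shares of counts and not of molecules.

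By source RNA, the tRNA probes took 18.1% of the profile in K562, 9.59% in Meg-01, 6.49% in Raji, 1.91% in U937 and 2.41% in Jurkat. Within the sum of the 9 probes hsa-miR-720 alone took from 68.2% in U937 to 93.8% in Raji. The U2 probe took 1.34% of the profile in Meg-01, 0.339% in U937, 0.285% in K562 and 0.0704% in Jurkat. The Y3 probe took 0.509% in K562, 0.299% in U937, 0.229% in Meg-01, 0.0980% in Raji and 0.0579% in Jurkat. As a yardstick, the highest human probe was miR-142-3p in Meg-01 (20.1%) and Jurkat (29.3%) and miR-92a in Raji (17.6%), U937 (19.5%) and K562 (25.3%). When the 9 probes were left out of the total, the share of miR-92a in K562 became 31.2% and that of miR-142-3p in Meg-01 22.6%.

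**Figure D2:**
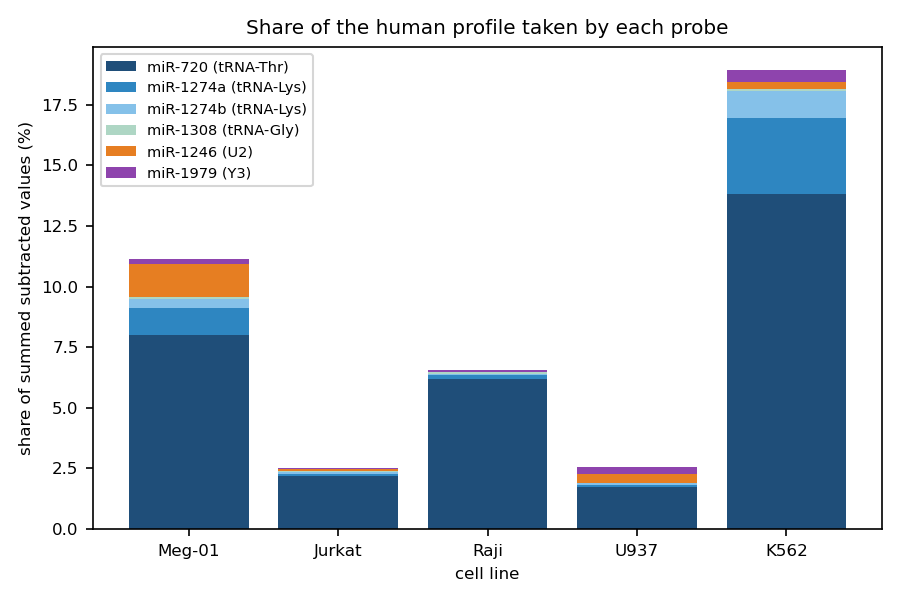
Share of the summed scaled and subtracted values of all human probes (%) taken by each of the 6 detected probes, stacked, in the 5 cell lines. The bars reach 18.9% in K562 and 11.2% in Meg-01 and stay at 2.53% in Jurkat and 2.55% in U937, and hsa-miR-720 is the tallest segment of each.

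The spread between lines was read as the highest over the lowest line. It was 10.7-fold for hsa-miR-720 (K562 over U937), 61.2-fold for hsa-miR-1274a (K562 over U937), 27.4-fold for hsa-miR-1274b (K562 over Raji), 4.36-fold for hsa-miR-1308 (K562 over U937) and 10.6-fold for hsa-miR-1979 (K562 over Jurkat). For hsa-miR-1246 it was at least 14.2-fold, the value over Jurkat, since Raji was at or below background. All 6 detected probes reached 4-fold, against 42.2% of the 308 human probes above background in at least 1 line, and their median of 12.5 stood beside 2.71 over those 308. The other 3 of the 9 gave no fold. Whether a probe is among the 308 rests on its highest line, and 88 of them were above background in all 5 lines. For the rest, lines not above it entered at their threshold. A probe that passed narrowly in 1 line can then have a small fold, and one that passed narrowly in several a large fold. The 6 detected probes were among the 100 most abundant, which the 308 as a whole are not. These counts are therefore a description. Subtraction widens the fold of a low line, so the values before it are given with their intervals: 10.5 (9.89 to 11.1) for hsa-miR-720, 37.7 (30.5 to 47.1) for hsa-miR-1274a, 14.1 (11.6 to 17.4) for hsa-miR-1274b, 2.41 (1.74 to 3.36) for hsa-miR-1308, 15.2 (11.1 to 21.5) for hsa-miR-1246 and 7.43 (5.98 to 9.30) for hsa-miR-1979. These compare other lines in 2 cases, with Jurkat in place of Raji as the lowest line of hsa-miR-1274b and Raji in place of Jurkat as that of hsa-miR-1246. The Raji count of hsa-miR-1246 was not above background, so its 15.2 is a ratio of counts as read, background included, and not a fold of a measured level. On that scale 5 of the 6 reached 4-fold, against 24.0% of the same 308 probes, and hsa-miR-1308 did not. The 6 probes are not independent of each other, since hsa-miR-1274a and hsa-miR-1274b come from tRNAs of the same amino acid and the lines are the same.

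K562 was the highest line for 5 of the 6 detected probes (26.3% of the 308) and Meg-01 for hsa-miR-1246 (13.6%), although hsa-miR-1308 was highest in Meg-01 without scaling and when scaled to the positive controls or to total human counts. For hsa-miR-720, hsa-miR-1274a, hsa-miR-1274b and hsa-miR-1308 K562 was followed by Meg-01 in subtracted values, an order seen in 4.87% of the 308. Before subtraction Raji stood between K562 and Meg-01 for hsa-miR-1308. Without K562 the fold over the other 4 lines was 3.83 for hsa-miR-720, 13.4 for hsa-miR-1274a, 5.81 for hsa-miR-1274b, 3.18 for hsa-miR-1308 and 4.61 for hsa-miR-1979, and at least 14.2 for hsa-miR-1246, with Raji at or below background. On those 4 lines 4 of the 6 probes reached 4-fold, against 34.4% of 291 human probes above background in at least 1 of them. Before subtraction 2 of the 6 did, hsa-miR-1274a at 8.47 and hsa-miR-1246 at 15.2 against the background count of Raji, beside 21.0% of the 291, and hsa-miR-720 (3.76), hsa-miR-1979 (3.45) and hsa-miR-1274b (3.25) were under it.

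**Figure D3:**
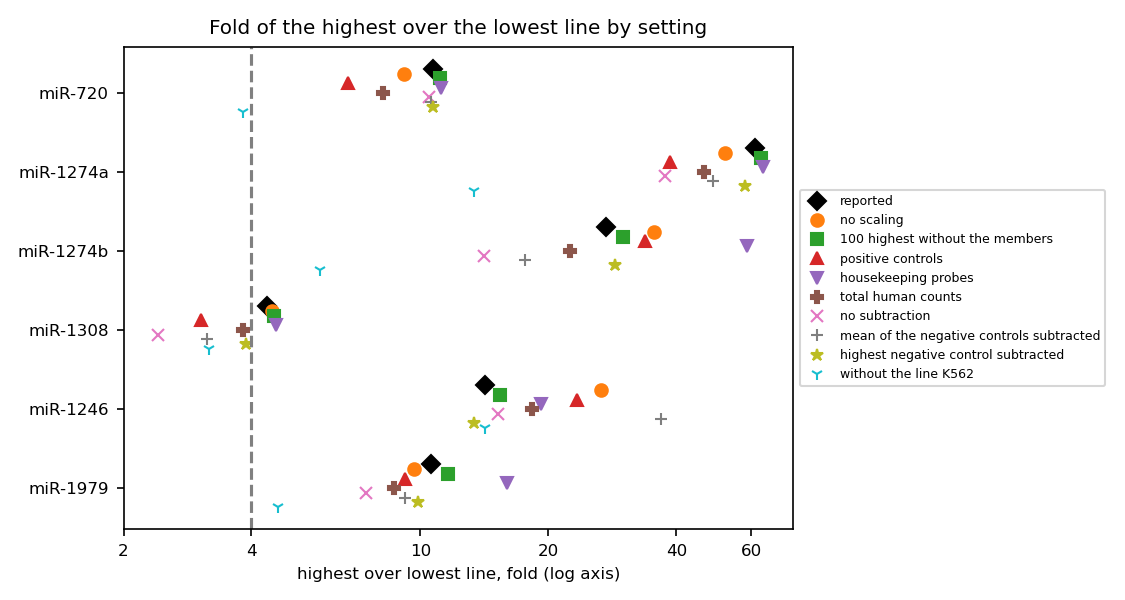
Highest over lowest line (fold, log axis) for the 6 detected probes, as reported and under each other scaling, subtraction or set of lines. The dashed line marks 4-fold. Points of hsa-miR-1274a lie at 37.7 or above with all 5 lines and at 13.4 without K562, and those of hsa-miR-1308 lie on both sides of 4-fold.

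The ratio of 2 probes within a line does not depend on the scaling, and its change between lines shows whether 2 probes moved together. The ratio of raw counts of hsa-miR-720 to hsa-miR-1274a was 4.31 in K562 (4.14 to 4.49), 6.89 in Meg-01 (6.46 to 7.35), 22.0 in Raji (18.6 to 26.3), 15.5 in U937 (12.5 to 19.5) and 14.4 in Jurkat (12.3 to 16.9). It was thus low in Meg-01 and K562, where both probes were high, and the interval of U937 overlapped those of Raji and Jurkat. Raw counts hold the background too, which weighs on the lower probe, and in subtracted values this ratio was 4.35 in K562, 7.13 in Meg-01, 32.6 in Raji, 24.9 in U937 and 17.8 in Jurkat. The ratio of hsa-miR-1274a to hsa-miR-1274b was 2.81 in Meg-01 (2.49 to 3.16) and 2.87 in K562 (2.67 to 3.09), which did not differ beyond counting error. It was 1.61 in Jurkat (1.26 to 2.07), 1.88 in Raji (1.40 to 2.53) and 0.957 in U937 (0.707 to 1.29). In subtracted values it was 2.94 in K562, 3.03 in Meg-01, 3.36 in Raji, 0.931 in U937 and 1.90 in Jurkat, so that Raji, where hsa-miR-1274b was nearest to background, then lay beside K562 and Meg-01. The ratio of hsa-miR-720 to hsa-miR-1308 ran from 24.2 in U937 (18.6 to 32.2) to 105 in K562 (87.9 to 128). After subtraction K562 was again highest, at 149, but Jurkat was lowest at 41.3, with U937 at 60.9, Meg-01 at 73.5 and Raji at 95.4. The ratio of hsa-miR-1246 to hsa-miR-1979 was 5.06 in Meg-01 (4.41 to 5.81) and between 0.419 and 1.14 in the other 4 lines, with hsa-miR-1246 at or below background in Raji.

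**Figure D4:**
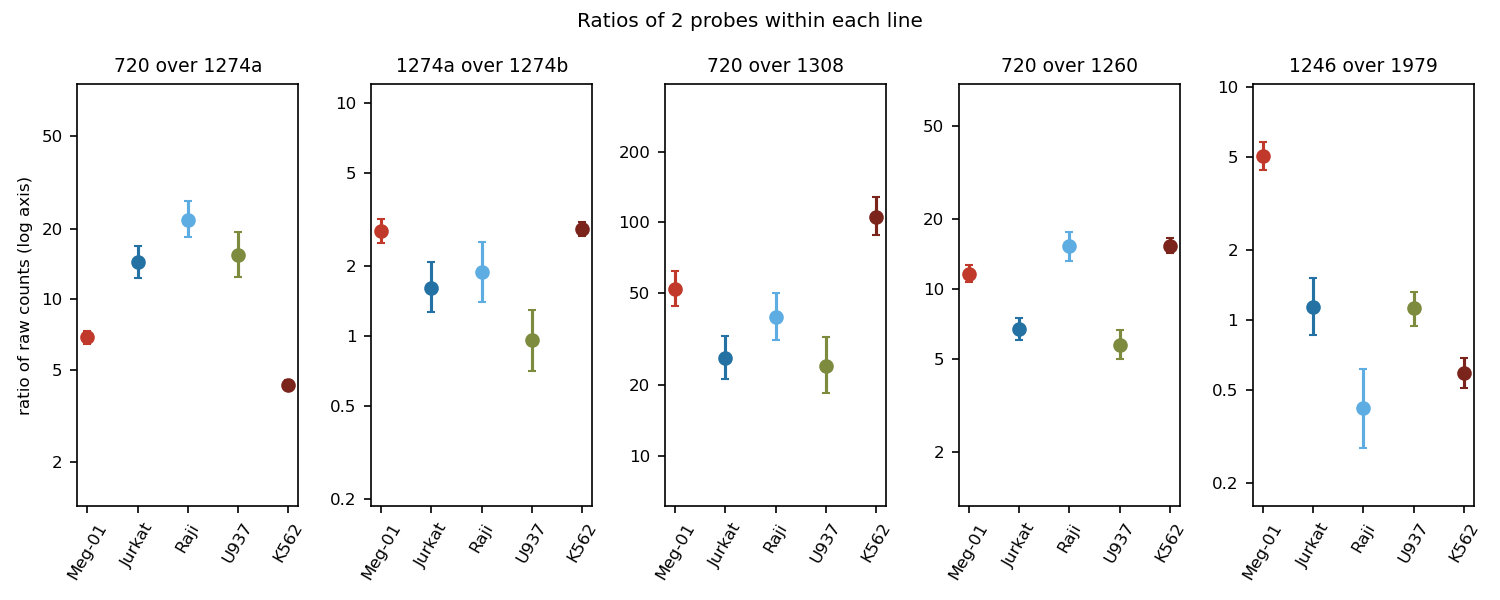
Ratio of the raw counts of 2 probes (log axis, numbers are those of the miRNA names) in each of the 5 cell lines, with 95% binomial intervals as bars. The ratio of hsa-miR-1274a to hsa-miR-1274b is 2.81 in Meg-01 and 2.87 in K562, and that of hsa-miR-1246 to hsa-miR-1979 is 5.06 in Meg-01 and at most 1.14 elsewhere.

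Summarized as the log2 range of such a ratio over the lines, where 0 would be a constant ratio, hsa-miR-1274a and hsa-miR-1274b had a range of 1.85 in subtracted values, as had hsa-miR-720 and hsa-miR-1308. The ranges of hsa-miR-720 with hsa-miR-1274a and with hsa-miR-1274b were 2.91 and 3.10. Those of hsa-miR-1308 with the same probes were 3.88 and 3.74. The 6 pairs among the 4 detected tRNA probes had a median range of 3.0, beside 2.99 over all 3828 pairs of the 88 human probes above background in every line. The 4 pairs of a tRNA probe with hsa-miR-1979 had a median of 3.34. Before subtraction these medians were 2.24, 1.97 and 2.59. A range grows with the spread of each probe itself, and these probes had wide folds, so the medians are not compared as a measure of moving together. Ranges were also set against a probe's own median over the 87 other probes above background in every line. For hsa-miR-1274a those with hsa-miR-1274b (1.85), hsa-miR-720 (2.91) and hsa-miR-1308 (3.88) were under its median of 5.60. So was that with the Y3 probe hsa-miR-1979 (4.73), and being under it was thus not particular to tRNA probes. Under the median of 4.87 for hsa-miR-1274b were hsa-miR-1274a (1.85), hsa-miR-1979 (3.07), hsa-miR-720 (3.10) and hsa-miR-1308 (3.74). For hsa-miR-720 the ranges of 2.91 and 3.10 with the tRNA-Lys probes were under its median of 3.36. For hsa-miR-1308 those of 3.88 and 3.74 were over its median of 2.56. The range of hsa-miR-720 with hsa-miR-1308 (1.85) was under both medians. Those of hsa-miR-720 (3.43) and hsa-miR-1308 (3.25) with hsa-miR-1979 were over them. Over the 4 lines with hsa-miR-1246 above background, its ranges with the other 5 detected probes ran from 3.21 with hsa-miR-1308 to 5.75 with hsa-miR-1274a.

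**Figure D5:**
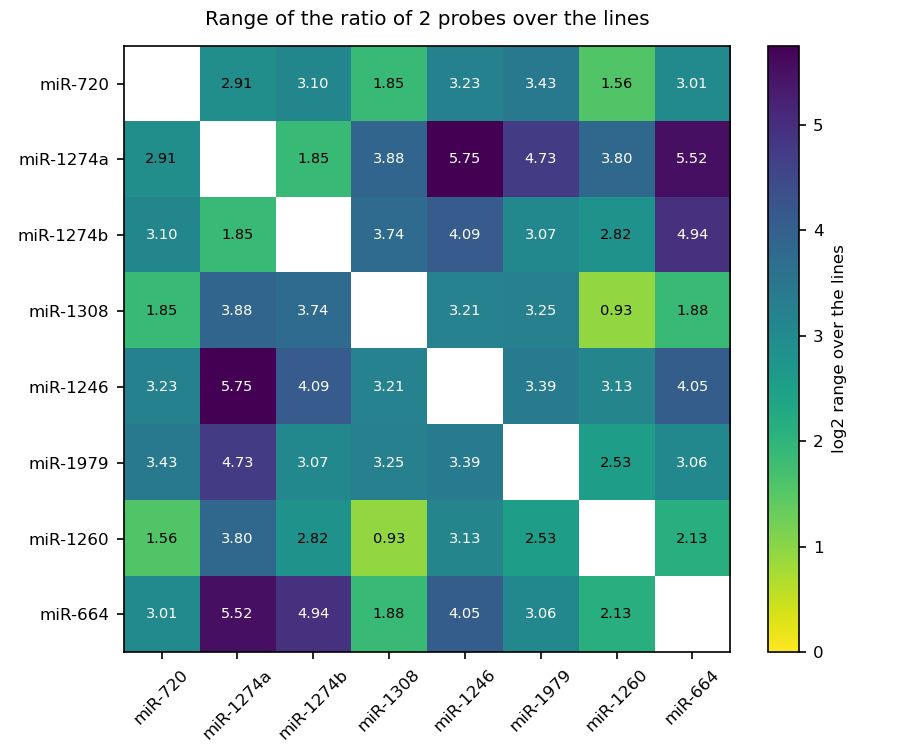
Log2 range over the lines of the ratio of 2 probes in subtracted values, for the 6 detected probes and for hsa-miR-1260 and hsa-miR-664 (color bar: log2 units, 0 is a constant ratio). Pairs with hsa-miR-1246 rest on 4 lines and the others on 5. The smallest value, 0.93, is that of hsa-miR-1308 and hsa-miR-1260, and the largest, 5.75, that of hsa-miR-1274a and hsa-miR-1246.

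Taken singly, some of the probes had near neighbors of like origin and others did not. Among the 87 other human probes above background in all 5 lines, hsa-miR-1274b had the smallest range to hsa-miR-1274a and hsa-miR-1274a the smallest to hsa-miR-1274b, in subtracted values and before subtraction. The nearest probes outside the 9 were miR-214 (1.34), miR-1260 (1.56) and miR-101 (2.27) for hsa-miR-720, where the median over the 87 was 3.36. For hsa-miR-1274a they were miR-214 (3.05), miR-1260 (3.80) and miR-561 (3.87), with a median of 5.60. For hsa-miR-1274b they were miR-561 (2.24), miR-1260 (2.82) and miR-18a (2.90), with a median of 4.87. For hsa-miR-1308 they were miR-615-5p (0.83), miR-1260 (0.93) and miR-101 (1.24), with a median of 2.56. The tRNA-derived miR-1260 was thus among the nearest 3 probes outside the 9 for all 4 tRNA probes. Among all 87 it held place 2 to hsa-miR-720 and hsa-miR-1308, 3 to hsa-miR-1274b and 4 to hsa-miR-1274a. Before subtraction miR-1260 was again among the nearest 3 outside the 9 for hsa-miR-720, hsa-miR-1274a and hsa-miR-1274b. It was not for hsa-miR-1308, where it held place 38 of the 87. Ranked by their range to hsa-miR-1308, hsa-miR-1274a held place 71 and hsa-miR-1274b place 68 of the 87 (81 and 76 before subtraction). Seen from the other side, hsa-miR-1308 held place 6 to hsa-miR-1274a and 18 to hsa-miR-1274b (8 and 16 before subtraction). The range of a pair is the same both ways, and its place depends on the probe ranked against. To hsa-miR-720 the tRNA-Lys probes held places 28 and 36, or 8 and 2 before subtraction, while hsa-miR-1308 held place 3, or 4. In the other direction hsa-miR-720 held place 2 to hsa-miR-1274a on both scales, and place 15 to hsa-miR-1308, or 64 before subtraction. To hsa-miR-1274b the Y3 probe hsa-miR-1979, of another source, held place 5, ahead of hsa-miR-720 at place 6, and before subtraction these places were 6 and 2. Several other near probes were low, miR-214 with 44 to 122 counts and miR-561 with 41 to 61, and their ranges carry a wide counting error. For hsa-miR-1979 the nearest were miR-548f (1.67), let-7e (1.89) and miR-10a (1.97), with a median of 3.62, none of them on the list of like origin, and miR-1260 held place 11. Here too miR-548f was low, with 40 to 54 counts, and before subtraction the nearest were miR-20a with miR-20b (read by 1 probe, 1.50), miR-10a (1.53) and miR-19b (1.63).

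A fixed list of 10 other probes for targets of like origin was read in the same way. Of these 2 were above background in all 5 lines, 5 in at least 1 line and 5 in none. The tRNA-derived hsa-miR-1260 had 805 counts in K562, 630 in Meg-01, 199 in Raji, 240 in U937 and 368 in Jurkat, and its fold of K562 over U937 was 4.40, or 3.93 before subtraction (3.40 to 4.56). The ratio of raw counts of hsa-miR-720 to hsa-miR-1260 was 15.3 in K562 (14.3 to 16.5), 11.6 in Meg-01 (10.7 to 12.6), 15.2 in Raji (13.1 to 17.6), 5.76 in U937 (5.02 to 6.63) and 6.71 in Jurkat (6.01 to 7.51). In subtracted values it was 16.0, 12.4, 19.4, 6.57 and 7.31 in the same order. It was low in U937 and Jurkat on both scales. The probe hsa-miR-664, whose hairpin lies in an H/ACA box snoRNA, a class that guides pseudouridylation, had 112 counts in K562, 125 in Meg-01, 113 in Raji, 103 in U937 and 124 in Jurkat. Raji was its highest and Meg-01 its lowest line after scaling, with a fold of 1.72, or 1.92 before subtraction (1.48 to 2.50). Without scaling Raji was 0.904 times Meg-01 (0.695 to 1.18), so this order rests on the factors.

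Of the 4 probes for mitochondrial RNA, hsa-miR-1974 was above background in Meg-01 (56 counts) and K562 (181 counts) and had 28 to 35 counts in the other lines. hsa-miR-1977 was above background in all lines but Raji, with 81 counts in K562, 51 in Jurkat, 43 in Meg-01 and 40 in U937. In Meg-01 and U937 it passed by 0.668 and 5.35 scaled counts, with intervals that held the threshold. hsa-miR-1978 and hsa-miR-1973 were at or below background throughout. The other arm of the vault-like RNA, hsa-miR-886-5p, passed the threshold by 0.133 to 11.5 scaled counts in Jurkat, U937 and K562, with intervals that held the threshold in each, so that VTRNA2-1 gave no clear signal from either arm. The Y5 RNA probe hsa-miR-1975 and the H/ACA snoRNA probes hsa-miR-1291 and hsa-miR-1248 were at or below background in every line.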

How the data were processed

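For each line the authors deposited the unnormalized nCounter counts of 753 probes, and for the series a table of human probes whose signal had a background taken off. There each signal above 0 equals the count minus 1 constant per line, 16.2 in Jurkat and 22.8 in K562, whose negative controls averaged 22.8 and 20.2. It was used as an alternative only. The study's methods name kit versions v1 and v2, and which of them these samples used is not given in the sources used here. Following the study's methods, each line was scaled by the geometric mean of its counts for the 100 human probes with the highest mean over the lines, and the mean plus 2 SD of the 8 scaled negative controls was subtracted. A line at or below its threshold entered folds of subtracted values at the threshold, and ratios before subtraction used its count as read. Called folds were at least 4-fold. Intervals are exact Poisson (counts), conditional binomial (ratios) or Wilson (shares), at 95%. Calculations used Python 3.11.15 with NumPy 2.4.6, pandas 2.3.3 and SciPy 1.17.1 and were tested on simulated counts. Probes named were the 9 members, 10 probes of like origin, the nearest 3 of each member, the highest of each line and markers. Members and lists were chosen with earlier results of these data known. Sequences are RefSeq's. Alternatives were other scalings, thresholds and subtractions and, chosen after seeing the data, leaving out K562.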

Additional observations from a re-analysis of the deposited data

How the results depend on the processing

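Without subtraction the summed share of the 9 probes was 16.3% in K562, 9.54% in Meg-01, 5.25% in Raji, 2.40% in U937 and 2.41% in Jurkat. With the mean of the negative controls subtracted it was 10.6% in Meg-01, 6.22% in Raji and 18.2% in K562, and from the deposited signals 10.6%, 6.22% and 18.4%. K562, Meg-01 and Raji were the highest 3 in that order under each of these settings. With the threshold at the mean of the negative controls 8 probes were above background in Raji, against 5 as reported, and 8 in Meg-01, U937 and Jurkat, against 6. With deposited signals above 0 these were 8 in Raji, Meg-01 and U937 and 9 in Jurkat. K562 had 6 under both. Without scaling, or scaled to the positive controls or to total human counts, 2 probes were highest in Meg-01 rather than 1, since hsa-miR-1308 moved there from K562. The other 5 detected probes had the same highest line under all 8 alternatives. The number of detected probes at or above 4-fold was 5 or 6 under those 8 and 4 without K562, an alternative chosen after seeing the data. hsa-miR-1308 was under 4-fold with positive controls (3.04), total counts (3.83), no subtraction (2.41), or when the highest (3.89) or the average (3.14) negative control was subtracted. The fold of hsa-miR-1274b ran from 14.1 without subtraction to 58.7 with housekeeping scaling, that of hsa-miR-720 was 6.76 with positive controls, that of hsa-miR-1979 was 16.0 with housekeeping probes, that of hsa-miR-1274a was 37.7 without subtraction and 38.6 with positive controls, and that of hsa-miR-1246 was at least 26.6 without scaling and at least 23.3 with positive controls, both over Raji at its threshold and not over Jurkat as reported, and 36.8 over Raji with the mean of the negative controls subtracted. The cause was not tested. No paired analysis was possible because each line has 1 sample. Values near the threshold are imprecise. Raji had the lowest total and the highest threshold, in raw counts (45.9) too, and the 39 raw counts of hsa-miR-1246 there would have passed the raw thresholds of Jurkat (35.0), U937 (34.9) and K562 (34.6).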
